A study of Mus musculus with 4 samples.

Results

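Osgin1 and Trib3, 2 of the 1940 mouse genes for which the deposited table lists a called interval of Nrf2 chromatin immunoprecipitation followed by sequencing (ChIP-seq), are described here across 3 libraries of esophagus. They were chosen by name as stress-induced regulators of growth, and all rows bearing these names (1 each) were used. The mice were labelled Keap1KO (knockout of Keap1), Nrf2KO (knockout of Nrf2) and wild-type, all of the C57BL/6 strain, with 1 ChIP library per genotype and the same Nrf2 antibody, and a pooled input library was not analysed here. The sources used here do not give how the knockouts were made, how old the mice were or how many animals went into a library. The table holds antibody signal near genes and no expression values, so the tissue is as labelled. With single libraries no test between genotypes was possible, and every difference below is one between those libraries, with no replicate error.

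Nrf2 is a transcription factor that pairs with small Maf proteins on antioxidant response elements and switches on genes that detoxify reactive compounds. Keap1 holds Nrf2 in the cytoplasm and delivers it to degradation, so cells without Keap1 accumulate Nrf2. OSGIN1 (oxidative stress induced growth inhibitor 1) has been described in human cells as a growth-restraining and death-promoting protein downstream of p53 and of Nrf2. TRIB3 is a tribbles pseudokinase, induced by ATF4 and CHOP when amino acids run short or the endoplasmic reticulum is stressed, and reported to bind Akt and ATF4 and to dampen their activity.

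The sequence just upstream of Osgin1 is shown because its called interval fell inside it. The table places Osgin1 (GeneID 71839) on the plus strand of chromosome 8, chr8:119437162-119446256 in build mm10, with 1 interval whose listed position lies 138 bp upstream of that start, at position 119437024. RefSeq's annotation of GRCm38.p6 (the assembly that mm10 names) has a longer Osgin1, starting at position 119425882, so the same position is upstream of the gene in the table and inside the gene's span in RefSeq. The following are the 250 bases before the RefSeq start site at position 119437147, chr8:119436897-119437146, plus strand, read from the RefSeq promoter table of GRCm38.p6. Capitals mark the match to the antioxidant response element core searched for, which reads TGAGTCAGC on the minus strand.
Osgin1 promoter: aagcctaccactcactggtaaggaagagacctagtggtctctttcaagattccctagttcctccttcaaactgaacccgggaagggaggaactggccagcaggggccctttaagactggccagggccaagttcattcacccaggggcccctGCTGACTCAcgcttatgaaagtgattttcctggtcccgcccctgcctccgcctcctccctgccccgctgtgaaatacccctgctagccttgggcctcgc

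The element lay at chr8:119437048-119437056, its upstream edge 99 bp before the RefSeq start, and its centre was 28 bp from the listed position of the interval. It was the only match in the Osgin1 window to the 2 element cores searched for on both strands, TGACNNNGC and TGAGNNNGC. A match to TGANTCA, the AP-1 consensus with any middle base, lay inside the element at chr8:119437050-119437056. It is made of the element's own bases and is not a separate site. Over 32817 RefSeq promoter windows of 300 bases, 27.8% held at least 1 of the 2 cores and 7.81% held TGANTCA. The exact 9 bases of the Osgin1 element were rarer, with 136 windows (0.414%). Among the 168 windows that hold a listed interval position the shares were 52.4% for either core, 20.8% for TGANTCA and 3.57% (6 windows) for the exact element. Windows of neighbouring start sites overlap, so these are counts of windows and not of separate sites.

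The 6 windows with the exact element and an interval are shown to set the Osgin1 site beside the others, in the orientation of the element (capitals) with 6 bases on each side.
Srxn1 (chr2:152105479-152105487, plus strand): tcacccTGAGTCAGCggccgg
Gstp1 (chr19:4037978-4037986, minus strand): acgtgtTGAGTCAGCatccgg
Osgin1 (chr8:119437048-119437056, minus strand): taagcgTGAGTCAGCaggggc
Zer1 (chr2:30124788-30124796, minus strand): accgggTGAGTCAGCactaac
Shc1 (chr3:89421529-89421537, plus strand): agcctgTGAGTCAGCactgtc
Ufl1 (chr4:25281960-25281968, minus strand): gattacTGAGTCAGCatcagc

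Heights at these 6 ran widely although the 9 bases were the same. In the Keap1KO library they were 158 at Srxn1 (sulfiredoxin, which repairs oxidised peroxiredoxins), 89 at Gstp1 (a glutathione transferase), 87 at Osgin1, 34 at Zer1, 18 at the interval in the Shc1 window and 10 at Ufl1. The interval in the Shc1 window is listed in the table under Pygo2, and the Gstp1 value is the mean of 2 regions shared with the near-identical Gstp2. Ufl1 was the exception in direction, with 10 in Keap1KO against 11 in Nrf2KO and 16 in wild-type. At 5 of the 6, Keap1KO exceeded wild-type by 2-fold or more on heights plus 1, no more often than over all gene rows (86.4%). A match to these letters is a description of the sequence and does not show that Nrf2 sits on it.

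Trib3 (GeneID 228775) is listed on the minus strand of chromosome 2, chr2:152337425-152344060 in build mm10, where the RefSeq gene has the same ends. Its 1 interval lay 5849 bp upstream of the start, at position 152349909, far from the promoter. None of the RefSeq promoter windows holds that position, and the Trib3 window ends 5599 bp short of it, so no sequence is shown for Trib3.

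Osgin1 carried one of the taller Nrf2 peaks of the table, and its height was mostly in the Keap1KO library. Peak height, the deposited signal of a library averaged over the regions of a gene, was 87 in Keap1KO against 6 in Nrf2KO and 11 in wild-type. Only the Keap1KO height was far above the rest, since the medians of all gene rows were 18 for Keap1KO, 5 for Nrf2KO and 5.5 for wild-type. The wild-type height was nonetheless in the upper part of that library and the Nrf2KO height close to its median. In Keap1KO 18 of the 1940 rows stood above Osgin1, in Nrf2KO 633 and in wild-type 116.

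Trib3 had a low peak in every library. Its height was 15 in Keap1KO against 0 in Nrf2KO and 1 in wild-type. The Keap1KO height was below the median of all rows, and 1286 rows stood above it, while 1884 rows stood above Trib3 in Nrf2KO and 1860 in wild-type. Trib3 was 1 of 56 rows (2.89%) listed at 0 in Nrf2KO and 1 of 10 rows that were at 0 there and at 1 or 0 in wild-type. Osgin1 was 5.8 times as high as Trib3 in Keap1KO and 11 times as high in wild-type.

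**Figure D1:**
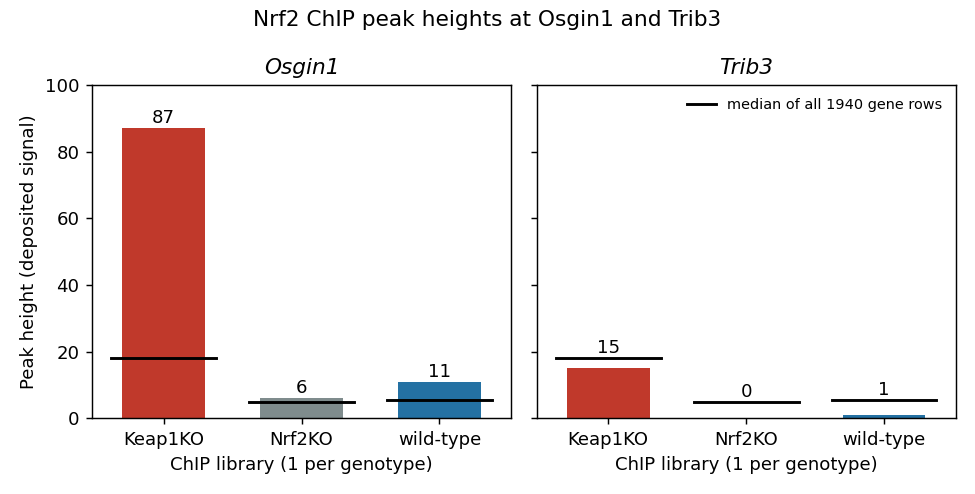
Peak height (deposited signal) of Osgin1 and Trib3 in the Keap1KO, Nrf2KO and wild-type libraries, with 1 library per bar and no error, and the median of all 1940 gene rows as a black line. Osgin1 stands at 87 in Keap1KO against 6 in Nrf2KO and 11 in wild-type, and Trib3 at 15, 0 and 1, below the median line in all 3.

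Both intervals were called in Keap1KO and in no other library. Of all rows, 99.1% had a Keap1KO call, 0% an Nrf2KO call and 4.18% a wild-type call, so a call in Keap1KO alone is what most rows show. The Osgin1 height of 11 in wild-type was in the range where calls began there. Among rows with 1 region, the 57 called in wild-type had heights of at least 10 and a median of 14, and 8 of them were lower than Osgin1, but 98 rows without a wild-type call had 11 or more. Trib3, at 15 in Keap1KO, was in the lower part of what was called in that library. Of 1624 rows with a single interval called in Keap1KO the lowest height was 9 and the median 17, 502 rows (30.9%) were lower than Trib3 and 89, Trib3 among them, had its height of 15. If calls were limited to heights of at least that median, Osgin1 would keep its call and Trib3 would lose it.

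The 2 genes differ in where the interval lies and in which neighbour shares it. The Osgin1 interval is also listed 9695 bp upstream of Necab2, the next gene along the chromosome, which encodes a calcium-binding protein of neurons, so both rows have the same heights and are 1 measurement. The Trib3 interval lies inside Gm14164, a long noncoding RNA gene in RefSeq that runs in the other direction, 4240 bp from its start, and the table lists the same heights there. No other row of the table has its start within 100 kb of Osgin1 or Trib3. The RefSeq neighbours Mlycd (malonyl-CoA decarboxylase) near Osgin1 and Rbck1 (a subunit of a ubiquitin ligase complex) near Trib3, whose spans lie 15186 bp and 17246 bp from the intervals, have no row in the table. The next listed intervals were 416000 bp below and 380416 bp above that of Osgin1. For Trib3 they were 125877 bp below, at Csnk2a1, and 622411 bp above.

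**Figure D2:**
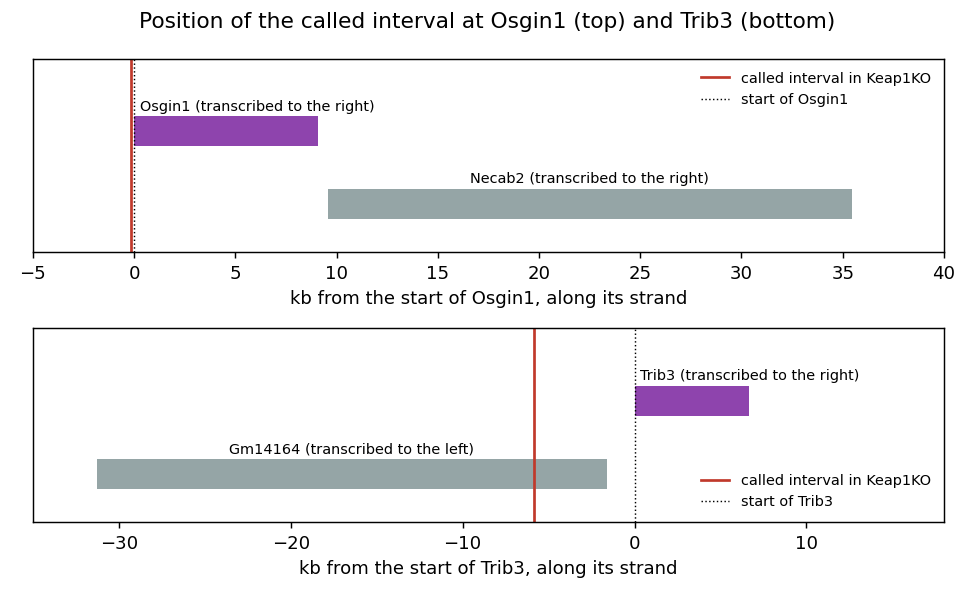
Distance in kb from the start of Osgin1 (top) and of Trib3 (bottom), drawn along each gene's own strand, with gene spans as bars and the Keap1KO interval as a red line. The interval is 138 bp before the start of Osgin1 and 5849 bp before that of Trib3, where it falls inside Gm14164.

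For Keap1KO against wild-type, the question was how Nrf2 signal compares when its repressor is missing. At Osgin1 the heights were 87 in Keap1KO and 11 in wild-type, a difference of 76 that 13 rows exceeded. On heights plus 1, the scale of all ratios here, that was 7.33-fold (log2 2.87), and 106 rows had a larger ratio. At Trib3 the heights were 15 in Keap1KO and 1 in wild-type, a difference of 14 that 812 rows exceeded, while the ratio was 8-fold (log2 3.00) and only 68 rows had a larger one. Both genes were at least 2-fold higher in Keap1KO, as were 86.4% of all rows, whose median log2 ratio was 1.70. Nearly all rows were listed because of a call in Keap1KO, so the high share is partly how the table was made.

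Which of the 2 genes had the larger ratio depended on the pseudocount, because a wild-type height of 1 is close to nothing. With 0.5 added to each height the ratio was 7.61-fold for Osgin1 and 10.3-fold for Trib3, and with 5 added it was 5.75-fold and 3.33-fold. The 2 ratios were equal at a pseudocount of 1.26.

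**Figure D3:**
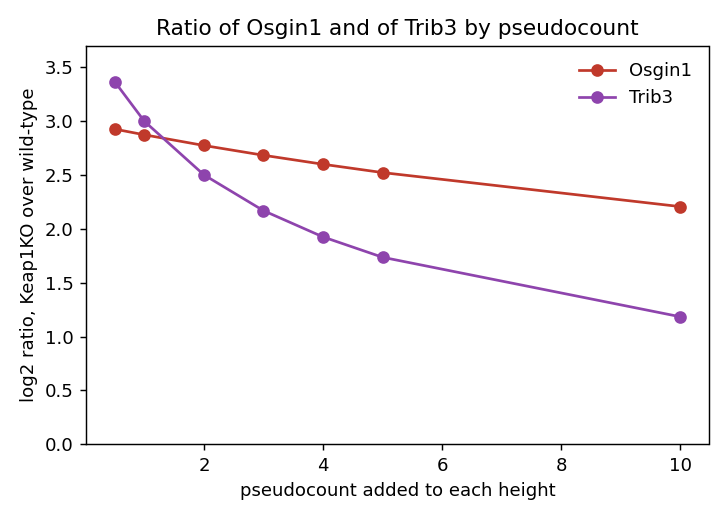
The log2 ratio of Keap1KO to wild-type (vertical axis) for Osgin1 and Trib3 by the pseudocount added to each height (horizontal axis). The line of Trib3 starts above that of Osgin1 and runs below it from a pseudocount of 2 on, and both stay above 1 throughout.

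Whether the authors scaled the libraries to each other is not known from the sources used here, and ratios move with such scaling. When each library was scaled to a common median height over the 1469 distinct sets of intervals, all rows together had a median log2 of 0.02 for Keap1KO over wild-type, against 1.70 as deposited. Of the rows at least 2-fold apart, 62.2% were then higher in Keap1KO, against 99.6% as deposited. Osgin1 then had a log2 ratio of 1.10, and Trib3 had 1.61. Relative to the median of all rows Osgin1 was 1.17 higher as deposited and 1.08 higher after scaling, and Trib3 1.30 and 1.59, so both stayed above the typical row. This scaling takes away any shift shared by most rows, whatever its source.

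For Keap1KO against Nrf2KO, the Nrf2KO library gave the signal of the same antibody in the labelled knockout of its target. Osgin1 had 87 in Keap1KO and 6 in Nrf2KO, a difference of 81 and a ratio of 12.6-fold (log2 3.65), which 95 rows exceeded. Trib3 had 15 in Keap1KO and was listed at 0 in Nrf2KO, so no fold is given. Few rows of its height were like it there, since 3 of the 94 rows with 15 in Keap1KO were listed at 0 in Nrf2KO. That is near the share over all rows, 2.89%. The medians of the 94 were 4 in Nrf2KO and 4.42 in wild-type. Both genes were at least 2-fold higher in Keap1KO on heights plus 1, as were 83.3% of all rows, with a median log2 ratio of 1.83. Scaled as above, the split of rows 2-fold apart was 58.4% higher in Keap1KO, against 99.8% as deposited, and Osgin1 had a log2 ratio of 1.78.

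Between Nrf2KO and wild-type, which bears on signal where Keap1 is intact, the differences in height were small. Osgin1 had 6 in Nrf2KO and 11 in wild-type, and its wild-type over Nrf2KO ratio was 1.71-fold (log2 0.78), which 418 rows exceeded. Trib3 was listed at 0 in Nrf2KO and had 1 in wild-type, a difference of 1 height unit. Wild-type was at least 2-fold above Nrf2KO in 17.5% of all rows, and the median log2 ratio was 0.15. Osgin1 fell short of 2-fold, and Trib3 met that rule on heights plus 1 exactly, through 1 unit. How much a height of so few units varies between libraries of 1 genotype cannot be told from these data.

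As a profile, Osgin1 and Trib3 both had a smaller share of their Keap1KO height in the other libraries than most rows. At Osgin1 the Nrf2KO height was 6.9% and the wild-type height 12.6% of that in Keap1KO. At Trib3 the shares were 0% and 6.67%. The medians over all rows were 24% for Nrf2KO and 27.3% for wild-type.

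**Figure D4:**
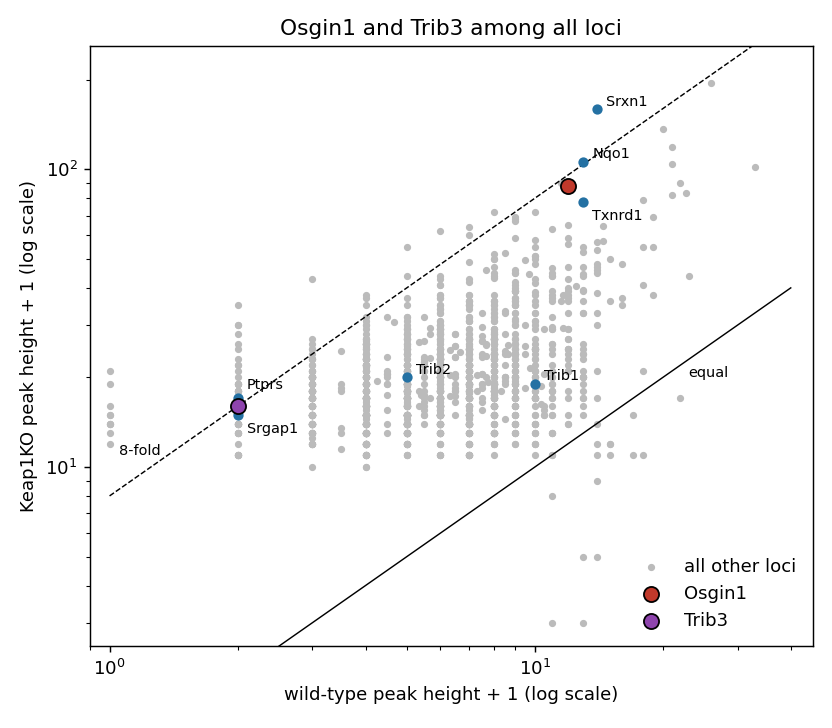
Keap1KO peak height plus 1 (vertical, log scale) against wild-type peak height plus 1 (horizontal, log scale), 1 point per distinct set of intervals, with lines of equal and of 8-fold higher Keap1KO height. Osgin1 (87 against 11) lies at the upper edge near Nqo1 and Txnrd1, and Trib3 (15 against 1) at the lower left near Ptprs and Srgap1, both close to the 8-fold line.

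Set among intervals of like position, Osgin1 was among the tallest and Trib3 was not. Of 441 rows with 1 region and an interval within 1 kb of the gene start, 6 were higher than Osgin1 in Keap1KO and the median was 17. Those 6 were Txn1 (thioredoxin, 194), Srxn1 (158), Nqo1 (a quinone reductase, 105), Prdx1 (a peroxiredoxin, 103), AV051173 (103, at the interval of Prdx1) and Gm12758 (101). The ratio of Keap1KO to wild-type was larger than that of Osgin1 in 11 of the 441 rows, whose median log2 ratio was 1.36. Of 263 rows with 1 region whose interval lay 1 to 10 kb upstream, 164 were higher than Trib3 in Keap1KO, and the medians were 17 in Keap1KO against 5 in Nrf2KO and 5 in wild-type. The ratio of Keap1KO to wild-type exceeded that of Trib3 in 15 of these rows, against a median log2 ratio of 1.74.

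The 5 rows most like Osgin1 over the 3 libraries, by Euclidean distance of log2(height + 1), belonged to detoxifying enzymes and to genes that share their intervals. The nearest, at a distance of 0.292, was the interval of Nqo1 and Nob1, with 105 in Keap1KO against 6 in Nrf2KO and 12 in wild-type. Next, at 0.305, was that of Txnrd1 (thioredoxin reductase) and Eid3, with 77 in Keap1KO against 5 in Nrf2KO and 12 in wild-type. The fifth gene by this measure was Gstp1, at 0.355, level with Gstp2, with mean heights of 89 in Keap1KO against 4.5 in Nrf2KO and 10.5 in wild-type. Beyond the 5, genes of another kind followed closely. Sgol2 was at 0.363, with 86 in Keap1KO against 8 in Nrf2KO and 11 in wild-type, and Reep3 at 0.587. The kind of gene named thus depends on where the list stops. When shares of the Keap1KO height were compared instead of log2 heights, none of these was among the 5 nearest, which were Pgbd5, 5430403N17Rik, Gm5616, Duox1 and Duoxa1, with Keap1KO heights of 15 to 40.

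The rows most like Trib3 were Ptprs (a receptor tyrosine phosphatase) with Gm9258 at the same interval, Srgap1, Ccdc158 and Cdk5r2 (an activator of the kinase Cdk5). All had 0 in Nrf2KO and 1 in wild-type, and their Keap1KO heights were 16 at Ptprs, 14 at Srgap1, 17 at Ccdc158 and 13 at Cdk5r2. The same 5 genes were nearest by shares of the Keap1KO height. Likeness over 3 libraries at such low heights says only that the few units fell in the same way.

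The other tribbles genes had intervals too, and Osgin2, the paralogue of Osgin1, had no row. Trib2, whose interval lay 3153 bp into the gene, had 19 in Keap1KO against 3 in Nrf2KO and 4 in wild-type. Trib1, whose interval lay 974 bp upstream, had 18 in Keap1KO against 12 in Nrf2KO and 9 in wild-type. The 3 tribbles genes were thus close in Keap1KO, at 15 to 19, and their heights in Nrf2KO and wild-type ran from 0 to 12. How much heights of so few units vary between libraries of 1 genotype is not known. Keap1KO was 8-fold above wild-type at Trib3, 4-fold at Trib2 and 1.9-fold at Trib1, and the order in Nrf2KO was the reverse, with the highest value at Trib1.

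Genes of the integrated stress response, the pathway that induces Trib3, had a row for 8 of 38 (21.1%), Trib3 included. The share over protein-coding RefSeq genes was 7.67%. This list and those below were chosen with earlier results of these data known, and each holds Osgin1 or Trib3. Their shares with a row are therefore no measure of enrichment. The 2-fold rule was met at 7 of the 8 for Keap1KO over wild-type and at 7 of the 8 for Keap1KO over Nrf2KO, near the shares of all rows. The tallest was Eif4ebp1, an inhibitor of cap-dependent translation, with 51 in Keap1KO against 7 in Nrf2KO and 7 in wild-type. Gdf15, a stress-induced hormone, had 32 in Keap1KO against 2 in Nrf2KO and 8 in wild-type. Of the cystine transporter genes, Slc7a11 had mean heights of 29.7 in Keap1KO against 3.67 in Nrf2KO and 3.67 in wild-type over 3 regions. Its partner chain Slc3a2 had 21, 6 and 3 in that order of libraries. Cebpb had 18 in Keap1KO against 4 in Nrf2KO and 8 in wild-type, and the splicing-activated factor gene Xbp1 had 14, 7 and 3, the one of the 8 under 2-fold for Keap1KO over Nrf2KO. Sesn2 (sestrin 2, an inhibitor of mTORC1) was the one under 2-fold for Keap1KO over wild-type, with 12 in Keap1KO against 5 in Nrf2KO and 7 in wild-type. Atf4 and Ddit3, which encode the ATF4 and CHOP that act on Trib3, had no row, nor did Atf3, Chac1 or Asns. Over the 8 the log2 ratio for Keap1KO over wild-type had a median of 2.18, against 1.70 over all rows.

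Of the tribbles partners and the insulin signal to Akt, 8 of 22 genes had a row, 3 of them the tribbles genes with Trib3. That is 36.4%, against 7.67% of protein-coding genes, in a list likewise chosen with earlier results known. Akt2, the one Akt gene with a row, had 15 in Keap1KO like Trib3, but 12 in Nrf2KO and 2 in wild-type, at an interval 40 bp upstream of its start. Foxo1, a transcription factor that Akt restrains, had 18, 7 and 2, Mtor had 14, 3 and 3, and Igf1r (a growth factor receptor) had 13, 7 and 3, in that order of libraries. The 2-fold rule was met at 7 of the 8 for Keap1KO over wild-type, near the 86.4% of all rows, and at 5 for Keap1KO over Nrf2KO, against 83.3% of all rows. Wild-type was below Nrf2KO at 5 of the 8, whereas over all 1940 rows it was below at 713 and above at 1013. The log2 of wild-type over Nrf2KO had a median of −0.33, against 0.15 over all rows. Whether this sets the list apart was not tested. Trib3 and Trib2 were the 2 genes of this group with wild-type above Nrf2KO.

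Among genes of p53 and growth arrest, the setting in which Osgin1 is described, 7 of 27 had a row (25.9%, against 7.67% of protein-coding genes). Osgin1 is 1 of the 7, and Trp53 itself had no row. The list was likewise chosen with earlier results known, which limits what that share can show. Bax, which permeabilises mitochondria in cell death, was taller than Osgin1, with 118 in Keap1KO against 7 in Nrf2KO and 20 in wild-type. That interval is shared with Gys1 and with Ftl1 (ferritin light chain), and it lay 1106 bp upstream of Ftl1, so the height cannot be assigned to Bax. Cdkn1a, the cell cycle inhibitor p21, had 42 in Keap1KO against 6 in Nrf2KO and 11 in wild-type at an interval 8762 bp upstream, shared with Trp53cor1. It had the same Nrf2KO and wild-type heights as Osgin1 and a lower Keap1KO height. Plk3 (whose interval is shared with Btbd19 and Tctex1d4) had 23 in Keap1KO against 7 in Nrf2KO and 6 in wild-type, Gadd45g had 20.5, 7.5 and 8.75 over 4 regions, and Mdm2, which degrades p53, had 19.5, 4.5 and 6.5 over 2. For Keap1KO over wild-type 6 of the 7 met the 2-fold rule, all but Sesn2, and for Keap1KO over Nrf2KO all 7 did, against 86.4% and 83.3% of all rows, so neither count sets the list apart.

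**Figure D5:**
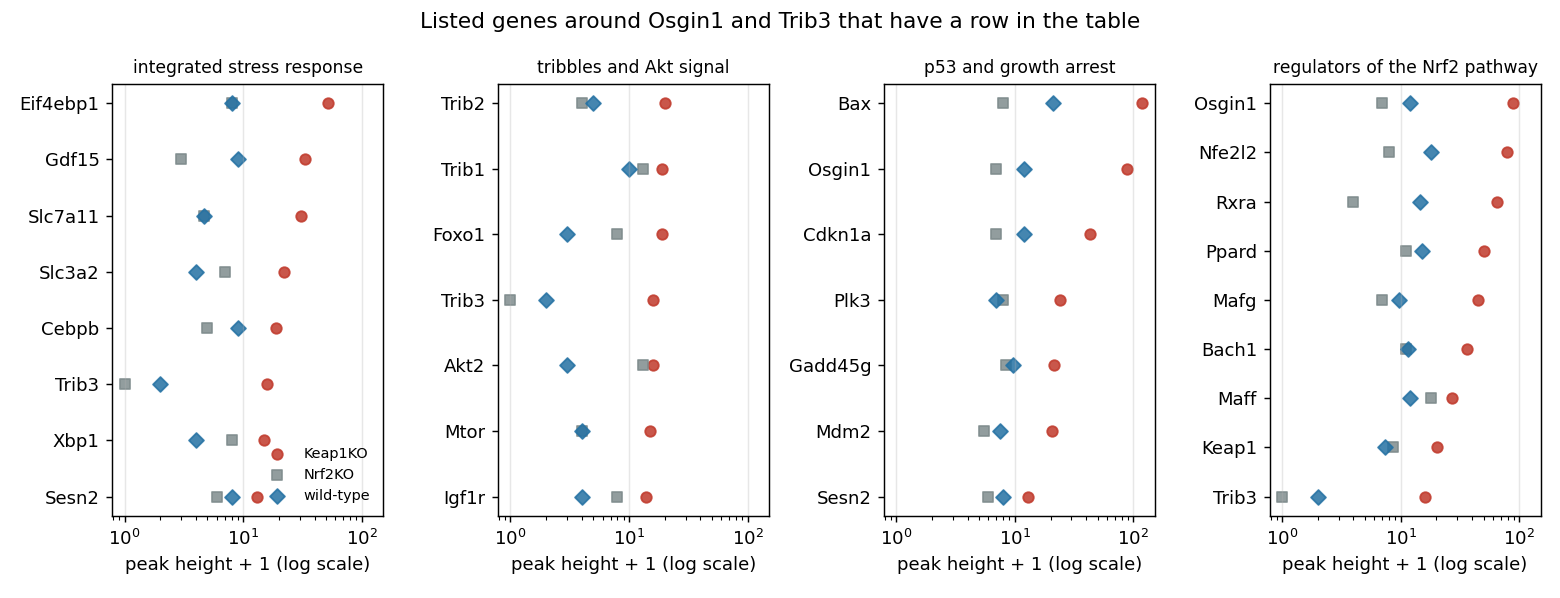
Peak height plus 1 (horizontal, log scale) in the Keap1KO, Nrf2KO and wild-type libraries for the genes of 4 lists that have a row, with 1 gene of the tribbles and Akt list not drawn, 1 point per library. Keap1KO is the highest of the 3 at every gene shown, the gap is wide at Osgin1 and Eif4ebp1 and narrow at Sesn2, and at Akt2 the Nrf2KO height of 12 lies just below the 15 of Keap1KO.

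Osgin1 and Trib3 were both placed in the list of regulators of the Nrf2 pathway, where they stood at opposite ends in Keap1KO height. Whether either regulates that pathway was not tested. Of the 17 listed genes 9 had a row (52.9%, against 7.67% of protein-coding genes), Osgin1 and Trib3 being 2 of the 9. The list was chosen with earlier results known and holds both members, so this share is no measure of enrichment. Osgin1 was the tallest in Keap1KO, above Nfe2l2 (which encodes Nrf2), with 78 in Keap1KO against 7 in Nrf2KO and 17 in wild-type, and Rxra (a nuclear receptor), with 63.5, 3 and 13.5. Trib3 was the lowest, below Keap1 itself, with 19.3 in Keap1KO against 7.67 in Nrf2KO and 6.33 in wild-type. Between them lay Ppard at 49 in Keap1KO, and the genes of proteins that bind the same elements, Mafg at 43.7, Bach1 at 35 and Maff at 26. Heights were means over 2 regions at Rxra and Bach1 and over 3 at Mafg and Keap1. The order is thus one of gene averages, and single regions may lie outside it. In the ratio of Keap1KO to wild-type the order changed, since Trib3 (8-fold) and Osgin1 (7.33-fold) were both above Mafg (4.62-fold) and Rxra (4.45-fold), the next of the 9. The place of Trib3 in this order rests on a wild-type height of 1 and on the pseudocount of 1. With 5 added to each height its ratio was 3.33-fold, and the order of the 9 was not computed at that setting. All 9 met the 2-fold rule for Keap1KO over wild-type (86.4% of all rows), and 8, all but Maff, for Keap1KO over Nrf2KO (83.3% of all rows). Signal at Nfe2l2 and Keap1 reflects antibody pulldown there, and checks neither knockout.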

How the data were processed

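Esophagus of Keap1KO, Nrf2KO and wild-type mice was profiled with 1 Nrf2 ChIP-seq library each. Per the submitters' processing notes the tools were BWA and MACS2 2.1.0 with mm10, without roles or parameters. The deposited table gives, per the file headers, a signal for each ChIP library (a gene's average peak height) and, for each library, whether an interval was called. Its unit and any scaling between libraries are not stated. Heights were whole numbers in the 1681 rows with 1 active region and means over regions otherwise. Sequencing depth is not known, and counting error was not computed.

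Interval positions were computed from gene start, strand and listed distance, and each interval had 1 position from all its genes. Whether this point is a centre or a summit is not given in the sources used here. Ratios are log2(height + 1), a pseudocount of 1 that understates changes of low rows, and a rule of 2-fold describes size only. Ranks count gene rows, some of which share an interval. List genes were matched by GeneID to RefSeq GRCm38.p6. Promoter windows (250 bases before to 50 after a start, RefSeq) were searched for motifs.

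The members, 4 gene lists and alternatives were chosen with earlier results of these data known. The rule for named genes took both members, genes sharing their interval or starting within 100 kb, the 5 nearest by pattern leaving out genes at the same interval, the other Osgin and tribbles genes, and listed genes with a row, of which 1 is counted in its list but not reported here. Txn1, Srxn1, Prdx1, AV051173, Gm12758, Sgol2 and Reep3 were named outside that rule, after their values were seen. So were the RefSeq neighbours without a row, the next interval at Csnk2a1 and the genes of the 6 element windows. Scripts ran in Python 3.11.15 with numpy 2.4.6, pandas 2.3.3 and matplotlib 3.10.9, and the counting and motif functions were tested on simulated data.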

Additional observations from a re-analysis of the deposited data

How the results depend on the processing

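No paired analysis was possible because Keap1KO, Nrf2KO and wild-type have 1 library each. Of 95 values recomputed under an alternative, 67 stayed within 1.5 times or 5 percentile points of the value reported, 27 moved and 1 changed sign. A pseudocount of 0.5 moved 0 of 20. With a pseudocount of 5 the log2 ratio of Osgin1 minus that of Trib3, −0.13 for Keap1KO over wild-type, changed sign to 0.79, the ratio of Trib3 became 1.74, and that of Osgin1 for Keap1KO over Nrf2KO became 3.06. Scaling each library to a common median gave log2 ratios for Keap1KO over wild-type of 1.10 (Osgin1) and 1.61 (Trib3), 1.78 for Keap1KO over Nrf2KO at Osgin1, and Trib3 height differences of 7.64 (Keap1KO minus Nrf2KO) and 1.83 (wild-type minus Nrf2KO). A call limited to heights of at least 17 left 0 intervals at Trib3, and shares of the Keap1KO height gave 0 of the 5 genes nearest to Osgin1.

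The percent of rows below either gene in Keap1KO height and in the ratio of Keap1KO to wild-type moved by under 5 points in every subset of rows that was run; other heights and ratios were not run on subsets. Trib3 is not among the rows of at least the median mean height, so that value was not run for it. The percents were not rerun with another pseudocount. With 5 in place of 1 the Trib3 ratio of Keap1KO to wild-type went from 8-fold to 3.33-fold.

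Counts at least 2-fold higher, wild-type over Nrf2KO, changed most. With a pseudocount of 1 they were 2 of 8 for the stress response and 1 of 8 for the tribbles and Akt list. For growth arrest they were 1 of 7, for the regulators 3 of 9, and for all rows 339 of 1940 (17.5%). The counts over all rows fell under each alternative below as well, and counts this small set no list apart. With a pseudocount of 5 they were 0 for the stress response, 0 for the tribbles and Akt list, 1 for the regulators and 75 for all rows. With the filter on mean height they were 1, 0 and, for all rows, 142. With a rule of 3-fold they were 1, 0, 0 for growth arrest, 1 for the regulators and 129 for all rows. For Keap1KO over Nrf2KO the tribbles and Akt list had 3 with a pseudocount of 5, 1 with the filter and 3 with the rule of 3-fold, and for Keap1KO over wild-type 2 with the filter. The filter left 875 (Keap1KO over wild-type) and 828 (Keap1KO over Nrf2KO) of all rows. By construction, filters leave fewer rows and adding more to each height makes ratios smaller. The libraries' depth is not known, which limits every ratio between them.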
